A study of Mus musculus with 6 samples.

Results

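The lineage transcription factors of microglia were examined as 9 genes, Spi1, Runx1, Cebpa, Cebpb, Cebpd, Mef2a, Mef2c, Mef2d and Sall1. They were chosen by name, with earlier results of these data known. A probe was counted as a member when its transcript accession belonged to one of these genes. This gave all 9 of the 23462 genes named on the array, measured by 15 of its 56605 probes. In total, 13 of the 15 probes were well above background on all 6 arrays, and 14 could be tested.

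Microglia of resting male mice aged 10 weeks were profiled on 1-colour Agilent arrays (n = 3 per group) to ask how overexpression of PGC-1α, a transcriptional coactivator, affects them. Per the study's methods, the strain was C57BL/6, and both groups share the PGC-1αf/f allele, a floxed PGC-1α construct that also encodes eGFP. The mPGC-1α mice carry in addition the Cx3cr1tm2.1(cre/ERT2)Litt allele, in which a tamoxifen-dependent Cre is driven from the Cx3cr1 locus, and the controls were PGC-1αf/f littermates. Other macrophages also express Cx3cr1. The methods describe several days of tamoxifen and then a waiting interval, meant to make the induction specific, and microglia were isolated by their P2RY12 surface protein. The labels do not say that replicates were separate animals, so p-values measure the spread between these samples only.

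Microglia arise from yolk sac progenitors, and their identity is set by a small group of DNA-binding proteins. PU.1, the product of Spi1, opens enhancers together with partners of the RUNX and C/EBP families. MEF2 factors and SALL1 act in addition in mature microglia, where SALL1 depends on TGF-beta signalling and sets these cells apart from other macrophages.

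Both arrays numbered 3 stood apart. Across probes, PGC-1αf/f replicate 3 correlated with the remaining arrays at 0.928 on average, against 0.962 to 0.972 for each of the other 5. On mPGC-1α replicate 3, 0 of 7 probes for Y-linked genes were well above background, although the sample is labelled male, while the other arrays had 5 or 6. Between 27025 and 30272 of 59305 spots were well above background, and 0 were saturated. The 12 microglial markers examined were all well above background on every array. Summed over the 7 of them with a value on every array, their signal was 117 to 139 times the array's 75th percentile in PGC-1αf/f and 108 to 123 times in mPGC-1α microglia. Markers of other cells were present too. The 13 neutrophil markers summed to 132, 156 and 30.7 in PGC-1αf/f and to 156, 164 and 183 in mPGC-1α microglia, and the 8 monocyte markers to 30.3, 39.1 and 6.87 against 40.3, 47.9 and 47. PGC-1αf/f replicate 3 was thus far below every other array in both lists. It was also the lowest for endothelial and mural markers (3.89, against 14.4 to 19.5) and erythroid markers (11.6, against 20.2 to 37.4). The 10 oligodendrocyte markers ran the other way, with 18.1 to 23.7 in PGC-1αf/f and at most 14.6 in mPGC-1α microglia. In a bulk sample, fewer cells of a type and less RNA per cell cannot be told apart. All PGC-1αf/f arrays lay in slide row 1 and all mPGC-1α arrays in row 2, so that row and group cannot be told apart.

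The targeted gene was measured by a pair of probes for Ppargc1a, which encodes PGC-1α. On the log2 scale relative to each array's 75th percentile, used for all levels below, the brighter probe (A_51_P279038) read 0.19, -0.44 and -1.21 in PGC-1αf/f and 0.57, 0.28 and 0.08 in mPGC-1α microglia. The mPGC-1α mean was 1.74-fold that of the controls, a log2 difference of 0.80 with a 95% interval from -0.02 to 1.62 (limma adjusted p 0.306), and the groups overlapped. It was 0.44 once PGC-1αf/f replicate 3 was left out. The dimmer probe (A_55_P2745394) differed by 0.59 (95% interval -0.30 to 1.48, limma adjusted p 0.445), also with overlap.

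None of the lineage factors passed the test. By limma, 0 of the 14 tested probes reached an adjusted p of 0.05, where 0.0792% of all 25257 probes with a p-value did. The smallest adjusted p among them was 0.284. At an unadjusted p under 0.05, 1 probe was higher (7.14%, against 7.53% of all probes) and 1 was lower (7.14%, against 9.21% of all probes). In 7 of the 14 the mPGC-1α mean was the higher one and in 7 the lower one, with a median log2 difference of -0.00458, beside -0.00257 for all probes. The numbers below 0.05 were 1 without PGC-1αf/f replicate 3, 0 without mPGC-1α replicate 3 and 1 without both of these arrays, with 0 past the adjusted threshold in each case. Scaling each array by its median instead put the median of all probes at -0.139. The differences of Cebpb, Cebpd, Mef2a and the Runx1 probe A_55_P2907714 were then below 0 instead of above it, though each lay above that median.

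**Figure D1:**
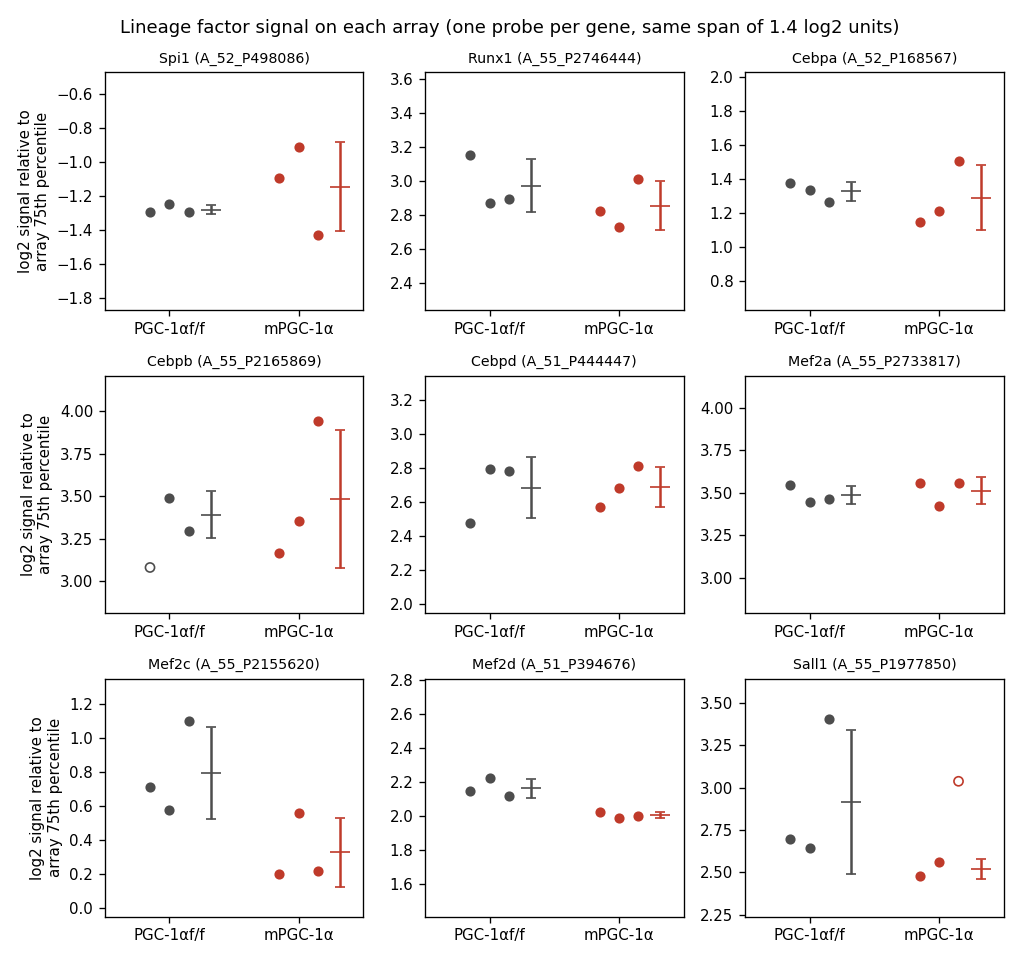
Log2 signal relative to the array's 75th percentile (vertical axis) for 1 probe of each lineage factor, in PGC-1αf/f (grey) and mPGC-1α (red) microglia. Each point is 1 array, bars give the mean and SD over the filled points (n = 3 per group, fewer where a point is open), and open points are outlier spots left out of the fit. All panels span the same range, and the groups stand apart for Mef2c and Mef2d, with every mPGC-1α point below every PGC-1αf/f point, while the other genes measured on all 6 arrays overlap.

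Spi1, which encodes the master regulator PU.1, was measured by 1 probe (A_52_P498086). It read -1.30, -1.25 and -1.30 in PGC-1αf/f and -1.09, -0.91 and -1.43 in mPGC-1α microglia. The controls lay close together, whereas mPGC-1α values lay on both sides of them. The log2 difference was 0.13 (SE 0.16, 95% interval -0.25 to 0.52, limma adjusted p 0.695). Changes beyond 1.43-fold upward or below 0.839 of the control level lay outside this interval. The difference was 0.017 without mPGC-1α replicate 2 and 0.28 without mPGC-1α replicate 3, and under a median shift it was 0.0011, beside -0.139 for all probes.

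Runx1 encodes a RUNX family factor needed for definitive blood cell formation, and was measured by 3 probes. The brightest (A_55_P2746444) read 3.15, 2.87 and 2.89 in PGC-1αf/f and 2.82, 2.73 and 3.02 in mPGC-1α microglia. The groups overlapped, and the log2 difference was -0.12 (SE 0.15, 95% interval -0.47 to 0.24, limma adjusted p 0.710). It was -0.026 without PGC-1αf/f replicate 1, -0.053 without mPGC-1α replicate 2, -0.20 without mPGC-1α replicate 3 and -0.24 without both replicate 3 arrays. Another probe (A_55_P2183438), matched to the same transcript accession, read -0.20, 0.21 and 0.56 in controls and 0.72, 0.63 and 0.71 in mPGC-1α microglia. Every mPGC-1α value lay above every control value, and this was the only one of the 11 tested lineage factor probes with 6 values to do so, where 11.4% of all probes with 6 values did. Its log2 difference of 0.50 (1.41-fold, 95% interval 0.02 to 0.98) had an unadjusted p of 0.0447 and a limma adjusted p of 0.291. Most of its spread came from the controls, whose SD was 0.38 against 0.05 in mPGC-1α microglia (n = 3 each). It was 0.30 without PGC-1αf/f replicate 1, 0.68 without PGC-1αf/f replicate 3 and 0.49 without mPGC-1α replicate 3. Of 3 ways to weight the arrays, 1 took it past the threshold (limma adjusted p 0.0374), the one that stopped with a convergence warning. The remaining probe (A_55_P2907714), matched to another Runx1 transcript, ran from -0.25 to 0.39 and from -0.12 to 0.47, with a difference of 0.07 (limma adjusted p 0.895). Averaged over the 3 probes the difference was 0.15, opposite in sign to that of the brightest.

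Whether probes of the same gene diverged was tested directly on their within-array differences, over 6 pairs of probes. Between the first 2 Runx1 probes the gap changed by 0.61 log2 units, without overlap between groups (exact permutation test, two-sided, p = 0.1, adjusted p 0.4 over the 6 pairs). This is the smallest p that this test allows with 3 arrays against 3.

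**Figure D2:**
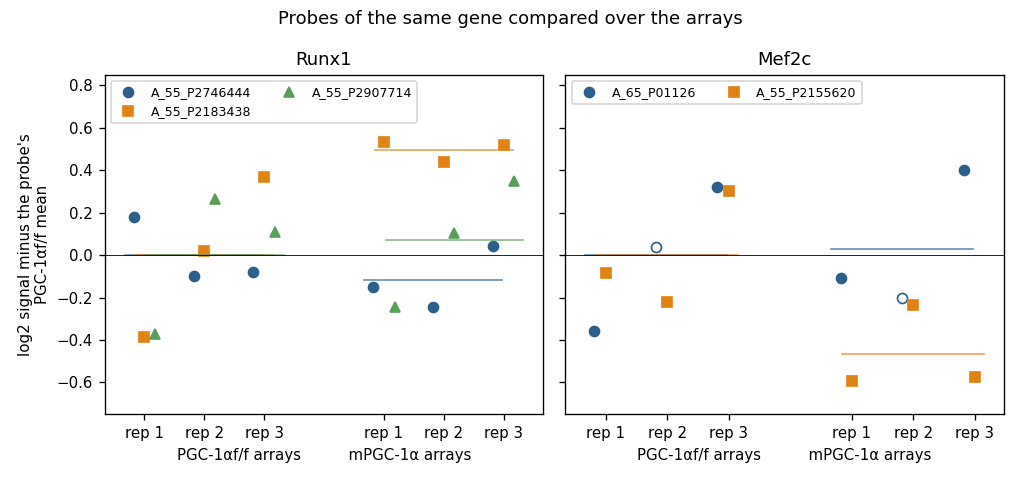
Log2 signal of each Runx1 and Mef2c probe minus its own PGC-1αf/f mean (vertical axis) on each of the 6 arrays (horizontal axis). Points are arrays, short lines are group means, and open points are outlier spots, kept here so that each probe has 6 values. The Runx1 probe A_55_P2183438 sits above 0 on all 3 mPGC-1α arrays and the Mef2c probe A_55_P2155620 below 0, while the other probes of both genes spread around 0.

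Runx1 and Mef2c are each transcribed from several start sites, and the promoter windows are shown to give these starts. Which part of a transcript each probe reads was not checked, so the windows are not linked to any probe. The windows run from 250 bases before to 50 bases after a start site, counted from 0 at the first transcribed base, and come from RefSeq on GRCm38.p6, written 5′ to 3′ on the gene's strand. RefSeq windows were found for 7 of the 9 genes, 12 windows in all. Capitals mark matches to the motifs searched on both strands, which were PU.1 (GAGGAAGT), C/EBP (TTGCNNAA), RUNX (TGTGGT), MEF2, ERR (TCAAGGTCA), CRE (TGACGTCA), AP-1 (TGANTCA) and the TATA box (TATAAA). The distal Runx1 window lies at chr16:92826025-92826324 on the minus strand and has 45% GC. The proximal one, 128745 bases downstream, lies at chr16:92697280-92697579 and has 69% GC.
Runx1 distal: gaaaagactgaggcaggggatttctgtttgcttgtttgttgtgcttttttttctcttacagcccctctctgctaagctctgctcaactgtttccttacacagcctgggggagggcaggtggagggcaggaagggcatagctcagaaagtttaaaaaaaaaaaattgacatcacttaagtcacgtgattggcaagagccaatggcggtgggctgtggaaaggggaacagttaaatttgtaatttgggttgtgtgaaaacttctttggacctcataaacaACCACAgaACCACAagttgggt
Runx1 proximal: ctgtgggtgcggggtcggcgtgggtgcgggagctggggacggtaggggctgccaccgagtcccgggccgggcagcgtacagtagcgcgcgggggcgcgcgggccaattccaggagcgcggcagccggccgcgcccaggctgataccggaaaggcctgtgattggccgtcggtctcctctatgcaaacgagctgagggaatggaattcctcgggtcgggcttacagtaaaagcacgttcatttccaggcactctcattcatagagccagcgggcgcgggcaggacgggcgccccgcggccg
The distal window holds 2 RUNX matches, at 28 and 36 bases after the start, both on the reverse strand. RUNX letters occurred in 16.8% of 32851 promoter windows. The proximal window holds none of the 8 motifs.

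Mef2c has 3 windows on the plus strand, at chr13:83503784-83504083, chr13:83523406-83523705 and chr13:83573357-83573656. The starts of the later ones lie 19622 and 69573 bases downstream of the first.
Mef2c start 1: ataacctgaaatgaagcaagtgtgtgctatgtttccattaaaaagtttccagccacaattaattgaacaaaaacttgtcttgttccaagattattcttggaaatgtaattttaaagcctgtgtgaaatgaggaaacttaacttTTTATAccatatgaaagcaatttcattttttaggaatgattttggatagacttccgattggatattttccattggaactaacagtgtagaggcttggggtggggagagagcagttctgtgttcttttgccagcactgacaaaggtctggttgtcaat
Mef2c start 2: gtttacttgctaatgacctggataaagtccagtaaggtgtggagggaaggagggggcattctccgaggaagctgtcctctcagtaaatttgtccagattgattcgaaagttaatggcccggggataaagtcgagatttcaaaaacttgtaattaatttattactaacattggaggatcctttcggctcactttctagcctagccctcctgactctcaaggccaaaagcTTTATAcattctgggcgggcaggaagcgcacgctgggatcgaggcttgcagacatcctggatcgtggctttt
Mef2c start 3: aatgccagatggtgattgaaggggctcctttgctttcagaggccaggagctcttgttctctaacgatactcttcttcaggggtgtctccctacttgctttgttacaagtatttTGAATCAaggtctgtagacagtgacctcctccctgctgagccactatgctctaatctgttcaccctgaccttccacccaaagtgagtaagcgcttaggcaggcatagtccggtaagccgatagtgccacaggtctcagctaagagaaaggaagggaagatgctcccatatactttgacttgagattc
TATA letters were found at -107 in the window of start 1 and at -22 in that of start 2, both in reverse, and occurred in 13.6% of all windows. An AP-1 match was found at -137 in the window of start 3, as in 7.81% of all windows. A single lineage factor window carried a MEF2 match, that of Mef2a itself at chr7:67372809-67373108 on the minus strand, shown for this reason.
Mef2a: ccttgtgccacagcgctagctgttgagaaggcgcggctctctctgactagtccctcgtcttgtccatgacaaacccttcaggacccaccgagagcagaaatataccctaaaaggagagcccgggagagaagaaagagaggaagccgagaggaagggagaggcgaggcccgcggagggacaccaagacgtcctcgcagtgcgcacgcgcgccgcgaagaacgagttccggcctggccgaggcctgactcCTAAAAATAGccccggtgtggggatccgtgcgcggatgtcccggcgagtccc
The match begins at -2, and MEF2 matches occurred in 3.69% of all windows. PU.1 letters (3.2% of all windows), C/EBP (10.8%), ERR (0.423%) and CRE (1.79%) were absent from all 12 windows. These are matches of letters in a short stretch, and neither binding nor start site use was measured.

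The C/EBP factors are leucine zipper proteins of myeloid cells, of which C/EBPα acts in lineage specification and C/EBPβ and C/EBPδ are induced during inflammation. Cebpa (A_52_P168567) read 1.38, 1.34 and 1.27 in PGC-1αf/f and 1.15, 1.21 and 1.51 in mPGC-1α microglia. The controls again lay within the range of mPGC-1α values, and the log2 difference was -0.04 (SE 0.14, 95% interval -0.38 to 0.30, limma adjusted p 0.909). It was 0.031 without mPGC-1α replicate 1 and -0.15 without mPGC-1α replicate 3. Cebpd (A_51_P444447) read 2.48, 2.79 and 2.79 in controls and 2.57, 2.69 and 2.81 in mPGC-1α microglia, with a difference of 0.0054 (SE 0.15, 95% interval -0.35 to 0.36, limma adjusted p 0.989). Both groups covered nearly the same range.

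Cebpb (A_55_P2165869) rested on 5 arrays, since the spot of PGC-1αf/f replicate 1 was an outlier and was dropped from the fit. The remaining values were 3.49 and 3.29 in PGC-1αf/f and 3.16, 3.35 and 3.94 in mPGC-1α microglia. mPGC-1α replicate 3 was the highest array and mPGC-1α replicate 1 the lowest. The log2 difference was 0.09 (SE 0.26, 95% interval -0.55 to 0.73, limma adjusted p 0.875), and it was 0.20 with the outlier spot kept at 3.08. Without mPGC-1α replicate 3 it was -0.13, opposite in sign. Each of the 3 C/EBP differences was smaller than its SE.

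The MEF2 factors are MADS box proteins that read signals from MAP kinases and class II histone deacetylases, and Mef2c restrains microglial responses to inflammation. Mef2a varied least of the 7 genes with 6 values at its brighter probe (A_55_P2733817), which read 3.55, 3.45 and 3.47 in PGC-1αf/f and 3.56, 3.42 and 3.56 in mPGC-1α microglia. Its log2 difference was 0.03 (SE 0.12, 95% interval -0.26 to 0.32, limma adjusted p 0.928). It was 0.0032 without mPGC-1α replicate 3 and 0.073 without mPGC-1α replicate 2. The other Mef2a probe (A_52_P311841) ran from 1.89 to 2.14 and from 1.73 to 2.06, with a difference of -0.10 (limma adjusted p 0.738). Neither probe separated the groups.

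Mef2c gave the lowest log2 difference of the lineage factors in the main fit. With quantile normalization instead, Sall1 was lower (-0.461, against -0.459 for Mef2c). The probe with values on all 6 arrays (A_55_P2155620) read 0.71, 0.57 and 1.096 in PGC-1αf/f and 0.20, 0.56 and 0.22 in mPGC-1α microglia. All mPGC-1α arrays lay below all control arrays, though mPGC-1α replicate 2 missed the lowest control by only 0.016 log2 units. Of the 11 lineage factor probes with 6 values, 2 lay below in this way, this one and a Mef2d probe, where 13.7% of all such probes did. The log2 difference was -0.47 (0.723 of the control level, SE 0.19, 95% interval -0.91 to -0.02), with an unadjusted p of 0.0417 and a limma adjusted p of 0.284. It was -0.32 without PGC-1αf/f replicate 3, -0.41 without mPGC-1α replicate 3 and -0.26 without both. In the other direction, it was -0.577 without PGC-1αf/f replicate 2 and -0.584 without mPGC-1α replicate 2. Within the slide columns that held an array of each group it was -0.51 in column 1 and -0.02 in column 2.

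The brighter Mef2c probe (A_65_P01126) rested on 4 arrays. Outlier spots removed replicate 2 of both groups, and the remaining arrays read 2.68 and 3.36 in PGC-1αf/f and 2.93 and 3.45 in mPGC-1α microglia. Its log2 difference was 0.17 (SE 0.32, 95% interval -0.65 to 0.98, limma adjusted p 0.816), or 0.03 with outlier spots kept, over arrays that overlapped. The gap between both Mef2c probes, with outlier spots kept, changed by -0.50 (exact permutation test, two-sided, p = 0.2, adjusted p 0.4). Averaged over both probes the Mef2c difference was -0.15. Oligodendrocyte markers also had lower means in mPGC-1α microglia. Of 10 tested, 6 were lower at an unadjusted p under 0.05, where 5.71% of all genes were, and the median log2 difference was -0.66, or -0.55 without PGC-1αf/f replicate 3. A separate fit used only the probes well above background on all 6 arrays. There, 5 of the 8 markers tested were lower at this level (median -0.579). Their part in the Mef2c value was not tested.

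Mef2d showed the tightest separation at its brightest probe (A_51_P394676). It read 2.15, 2.23 and 2.12 in PGC-1αf/f and 2.03, 1.99 and 2.00 in mPGC-1α microglia. The groups did not overlap, and the SD was 0.06 and 0.02 (n = 3 each). The log2 difference was only -0.16 (0.896 of the control level, SE 0.12, 95% interval -0.44 to 0.12, limma adjusted p 0.511). It lay between -0.13 and -0.18 when any array was left out. Limma's SE, which draws on the spread of all probes, was larger than the SD of either group here. A dim Mef2d probe (A_51_P504672), well above background on 2 of 3 control arrays, differed by -0.01 (limma adjusted p 0.969), and another (A_55_P1966958) was well above background on 2 arrays of each group and was not tested.

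Sall1 encodes the zinc finger protein that marks microglia among macrophages. Its probe (A_55_P1977850) rested on 5 arrays, because the spot of mPGC-1α replicate 3 was an outlier. The values were 2.70, 2.64 and 3.40 in PGC-1αf/f and 2.48 and 2.56 in mPGC-1α microglia. PGC-1αf/f replicate 3 was the highest array by far. The log2 difference was -0.40 (SE 0.26, 95% interval -1.04 to 0.25, limma adjusted p 0.473). It was -0.15 without PGC-1αf/f replicate 3, and was -0.22 with the outlier spot kept at 3.04, in which case the groups overlapped. Within slide columns it was -0.22 and -0.08. Among the probes that stand for a gene the widest interval belonged to Sall1, and it reached from 0.485 to 1.19 of the control level.

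**Figure D3:**
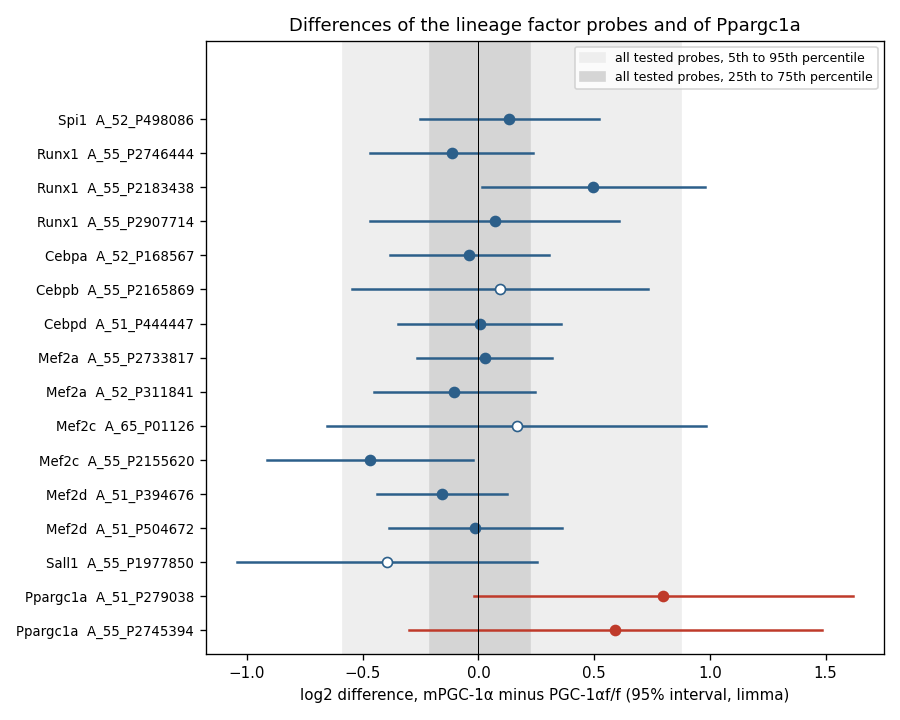
Log2 difference, mPGC-1α minus PGC-1αf/f, with its 95% interval from limma (horizontal axis) for each tested lineage factor probe (blue) and for Ppargc1a (red), n = 3 arrays per group. White points rest on 5 arrays for Cebpb and Sall1 and 4 for Mef2c, and shading gives the spread of the 22997 tested probes with 6 values. All lineage factor intervals except those of Runx1 A_55_P2183438 and Mef2c A_55_P2155620 include 0.

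The differences were small beside those of the array as a whole. Over the 11 lineage factor probes with 6 values, the median absolute log2 difference was 0.104, against 0.214 over all 22997 such probes. The largest of the 11 was 0.497, at the Runx1 probe A_55_P2183438. Replicates were also closer, with a median SD within groups of 0.152, against 0.22. These figures describe the probes and were not tested, since brightness was not matched. In simulated data with the spread of these arrays, 18% of probes changed by a log2 value of 1 were recovered and 86.5% of those changed by 2. Smaller changes were not simulated. The simulation covered all 22997 probes and not the less variable lineage factor probes, so these shares are not theirs.

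Other genes with a like pattern over the arrays were then looked for. The likeness of another gene was measured as the root mean square difference of mean-centred log2 values over the 6 arrays, among genes that varied at least as much. For Mef2c the nearest of 2936 genes were Cdk12 (0.065), Sec24b (0.0653) and Kctd12b (0.0724), each far under the Mef2c SD of 0.334 over the arrays. For Mef2d the nearest of 10956 were Copb2 (0.0294), Vps39 (0.0315) and Exosc7 (0.0317). With 6 arrays and so many candidates, such close neighbours are a description only.

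Next, genes around the lineage factors were counted by list, with 1 probe per gene and a value on every array. The lists were also chosen with earlier results of these data known. The shares of all genes beside them are therefore not an independent comparison. By limma, 0 genes of the 6 lists reached an adjusted p of 0.05. Among all 12302 genes tested in this way, 8.16% were higher and 5.71% were lower with an unadjusted p under 0.05, and the median log2 difference was 0.0283. Of the relatives and partners of the lineage factors, 15 of 22 were tested, of which 1 was higher and 3 were lower at this level (median -0.0183). Sall2 and Sall3, paralogs of Sall1, were among the lower ones. Sall2 read 0.15, 0.04 and 0.26 against -0.04, -0.58 and -0.35 (log2 difference -0.47, limma adjusted p 0.260), and Sall3 differed by -0.41 (limma adjusted p 0.294). Trib3, a pseudokinase, differed by 1.32, but it was well above background on only 1 control array and entered the test through the mPGC-1α group. Trib1, a relative of Trib3 named outside the rule for list genes, differed by -0.01 (limma adjusted p 0.976). When only probes well above background on all 6 arrays were fitted, 14 relatives were tested, of which 0 were higher and 3 were lower. Hdac9, the other lower gene, named after its values were seen, overlapped between groups. Without PGC-1αf/f replicate 3, and without both replicate 3 arrays, the list had 2 higher and 0 lower genes at this level, and without mPGC-1α replicate 3 it had 1 of each.

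Of the 30 other macrophage and microglial regulators listed, 24 were tested, of which 6 were higher and 0 were lower at an unadjusted p under 0.05 (median 0.0983). Egr1, an immediate-early zinc finger factor, read 1.81, 1.52 and 2.24 in PGC-1αf/f and 3.38, 3.15 and 3.17 in mPGC-1α microglia. The groups were far apart, with a log2 difference of 1.37 (2.59-fold, SE 0.20, limma adjusted p 0.0784). Klf4, a Krüppel-like factor of monocytes, differed by 1.31 (limma adjusted p 0.0970) and the helix-loop-helix repressor Bhlhe40 by 1.13 (limma adjusted p 0.161). The HLH inhibitor Id3 differed by 0.96 (limma adjusted p 0.229). Across these lists the rule for naming genes required groups that did not overlap, so that feature was fixed by the choice. In the regulator list 7 genes lay above without overlap and 3 below, where 11.4% and 13.7% of all probes with 6 values did. Id3 differed by 0.63 without PGC-1αf/f replicate 3. Egr1 passed the threshold without that array (limma adjusted p 0.0426), with a random block for the column of the slide (0.0325) and with array weights (0.00638). The list had 8 higher genes without PGC-1αf/f replicate 3, 4 without mPGC-1α replicate 3 and 5 without both, where the median was 0.0051. Gfi1, well above background on 1 control array, entered the test through the mPGC-1α group. In the fit restricted to probes well above background on all 6 arrays, 23 genes were tested, 7 were higher and 1 was lower. That fit has its own p-values, so its counts are not a subset of those of the main fit.

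Of the ligands and receptors upstream of the lineage, 10 of 14 were tested, and an unadjusted p under 0.05 was found for 2 higher genes and 1 lower gene (median 0.297). Csf1r, the receptor that keeps microglia alive, is named outside the rule for list genes and differed by -0.05 (limma adjusted p 0.896). Its ligand Csf1 differed by 0.74, but it was well above background on 2 of 3 control arrays and entered the test through the mPGC-1α group. The fit restricted to probes well above background on all 6 arrays tested 8 genes of this list, with 1 higher and 1 lower. Tgfb1, which maintains Sall1 expression in microglia, read 1.20, 1.47 and 1.45 in PGC-1αf/f and 0.85, 1.05 and 0.90 in mPGC-1α microglia. No control array was as low as any mPGC-1α array, and the log2 difference was -0.44 (limma adjusted p 0.229), while Tgfb2 differed by 0.89 in the other direction (limma adjusted p 0.283) and by 0.49 without PGC-1αf/f replicate 3. Without PGC-1αf/f replicate 3 the list had 1 higher and 1 lower gene (median 0.0553), without mPGC-1α replicate 3 also 1 of each, and without both 1 and 0.

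**Figure D4:**
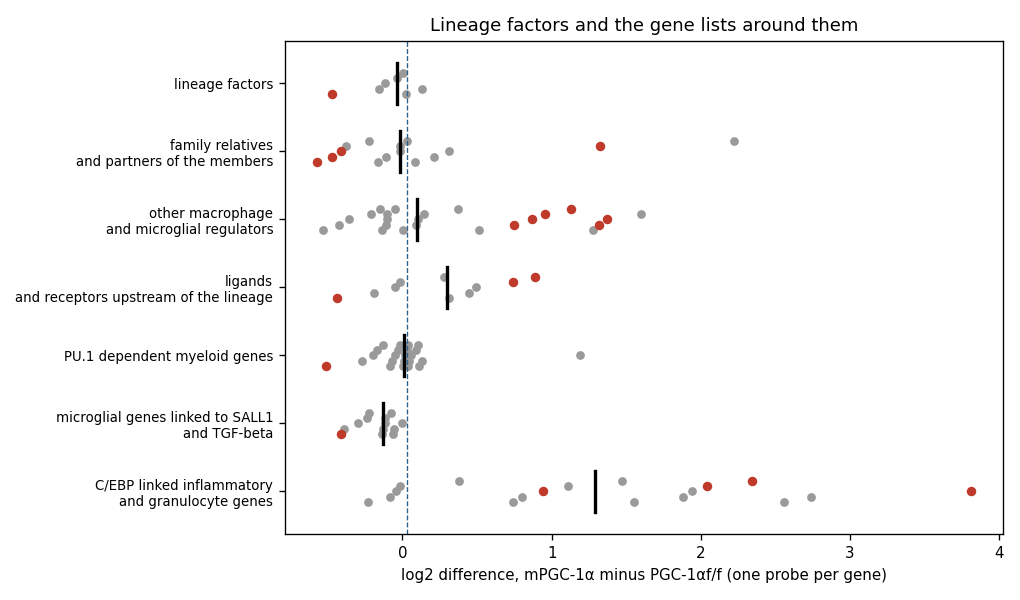
Log2 difference, mPGC-1α minus PGC-1αf/f (horizontal axis), for genes with a value on all 6 arrays, 1 probe each, in the lineage factors (7 genes, without Cebpb and Sall1) and the 6 lists around them. Each point is a gene, red where the unadjusted p was under 0.05, black bars are list medians and the dashed line is the median of all genes tested (0.0283). The medians closest to the dashed line are those of the PU.1 dependent genes (0.0089), relatives and partners (-0.0183), lineage factors (-0.0387) and other regulators (0.0983). The C/EBP linked list has the highest median (1.29).

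Genes known to depend on the lineage factors were counted likewise. Of the PU.1 dependent myeloid genes, 23 of 24 were tested, and an unadjusted p under 0.05 was found for 0 higher genes and 1 lower gene (median 0.0089). The lower gene was Cx3cr1, which read 4.53, 4.28 and 4.24 in PGC-1αf/f and 3.85, 3.95 and 3.73 in mPGC-1α microglia (log2 difference -0.51, limma adjusted p 0.194). Cx3cr1 is the locus that carries Cre in mPGC-1α mice, so that the Cre allele and the group cannot be told apart at this gene. The list's median was -0.0765 without PGC-1αf/f replicate 3, -0.0636 without mPGC-1α replicate 3, and -0.113 without both, with 2, 1 and 2 lower genes. Under a median shift it was -0.124, where the median of all probes was -0.139. Of the microglial genes linked to SALL1 and TGF-beta, 13 of 20 were tested and 0 had a higher mean in mPGC-1α microglia. Their median was -0.132, beside 0.0283 for all genes tested. The share of all genes with a higher mean is not given here, so this count of directions has no background. Only Sall3 among the 13 was below an unadjusted p of 0.05. With outlier spots kept, 19 genes could be tested, of which 2 had a higher mean, and the median was -0.137. For the 13 genes it was -0.19 without PGC-1αf/f replicate 3, -0.199 without mPGC-1α replicate 3, and -0.256 without both, with 2, 1 and 1 lower genes, and it was -0.265 under a median shift (all probes -0.139).

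The C/EBP linked inflammatory and granulocyte genes had 18 of 21 tested, and an unadjusted p under 0.05 was found for 4 higher genes and 0 lower genes (median 1.29). Il1b, an inflammatory cytokine, read -0.02, 1.601 and -0.50 in PGC-1αf/f and 2.16, 1.90 and 3.14 in mPGC-1α microglia (log2 difference 2.04, limma adjusted p 0.194). The acute phase gene Saa3 differed by 3.81 (limma adjusted p 0.231), or 2.31 without PGC-1αf/f replicate 3, and the cytokine signalling inhibitor Socs3 by 0.94 (limma adjusted p 0.216). The nitric oxide synthase gene Nos2 differed by 2.34, but it was well above background on only 1 control array and entered the test through the mPGC-1α group. The fit restricted to probes well above background on all 6 arrays tested 15 genes of the list, with 3 higher and 0 lower (median 0.941). Of the 13 neutrophil markers tested, several of which this list also holds, 12 had a higher mean in mPGC-1α microglia (median 1.94). None of the 13 had an unadjusted p under 0.05, and the count of directions again has no background. The restricted fit tested 9 of these markers, of which 8 had a higher mean (median 1.47). Without PGC-1αf/f replicate 3, the array with few neutrophil and monocyte transcripts, both medians were smaller, 0.349 for the C/EBP linked genes and 0.348 for neutrophil markers. The number of higher C/EBP linked genes was 5 without this array, 2 without mPGC-1α replicate 3 and 3 without both. Their part in the list's difference was not tested.

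**Figure D5:**
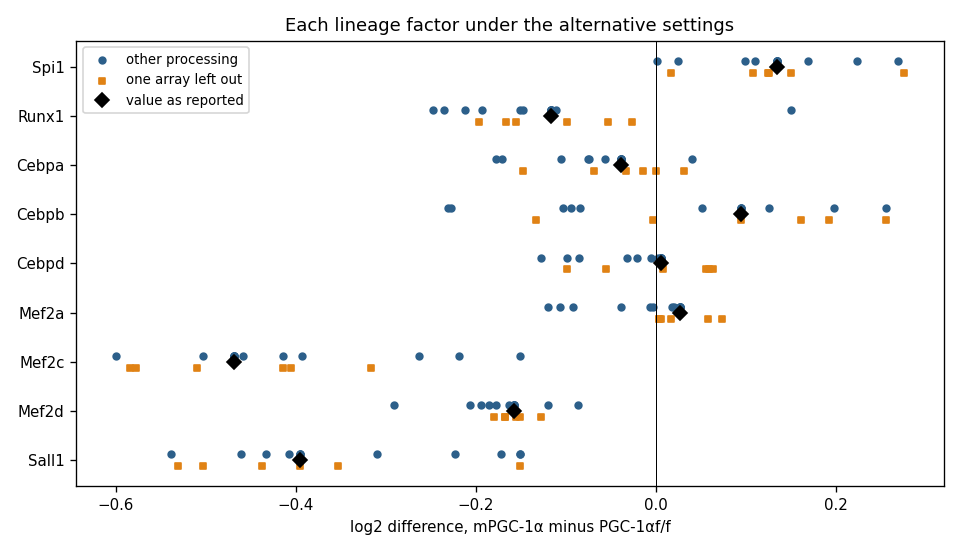
Log2 difference, mPGC-1α minus PGC-1αf/f (horizontal axis), of 1 probe per lineage factor as reported (black diamonds), with 1 array left out (orange squares) and under other processing, the mean over a gene's probes included (blue points). Mef2c, Mef2d and Sall1 stay below 0 and Spi1 above 0 in all settings shown, Runx1 lies above 0 only as the mean over its 3 probes (0.15), and Cebpa, Cebpb, Cebpd and Mef2a lie on both sides of 0.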

How the data were processed

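Deposited scanner files gave, per spot, the background-subtracted red (Cy5) intensity of Feature Extraction 11.5.1.1 and its flags. The authors amplified total RNA to cRNA before labelling, and their methods name GeneSpring for normalization and no test per gene. The deposited series-wide table held these intensities without normalization between arrays. Here, control and outlier spots were left out, the 75th percentile of an array was subtracted from its log2 intensity, and probes well above background (at least 0.5 of their spots) on all arrays of 1 group were fitted with limma 3.58.1 (lmFit, eBayes, two-sided, R 4.3.3). P-values were adjusted over all probes (Benjamini-Hochberg, threshold 0.05). Of 25333 such probes, 25257 had a p-value. Probes were named by accession through a RefSeq gene list of GRCm38.p6, which matched 33767 probes. The array design is on another build, so its coordinates were not used. The brightest probe with 6 values stood for a gene. Cebpb and Sall1 have none, and their only probe was used, as decided once this was seen. Named list genes were up to 4 highest and 4 lowest per list, at an unadjusted p under 0.05 and without overlap. Members and lists were chosen with earlier results of these data known. The genes most like Spi1 over the arrays are not reported here. The fit was tested on simulated data. Alternatives were 4 scalings, 2 filters, outlier spots kept, blocks, array weights and arrays left out. Probe pairs, values within slide columns, the array weight algorithms and the list counts under other settings were added after seeing the data. The number of arrays limits the precision. Tables were handled with data.table (version 1.17.8) and jsonlite (version 2.0.0), and figures with Python 3.11.15, matplotlib 3.10.9, pandas 2.3.3 and numpy 2.4.6.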

Additional observations from a re-analysis of the deposited data

How the results depend on the processing

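By limma, 0 lineage factor probes passed an adjusted p of 0.05 in any of 18 alternatives (adjusted p 0.079 to 1 at A_55_P2183438 of Runx1), but 1 did with another algorithm for the array weights. These weights depended on the algorithm, which was chosen after the counts were seen. Gene-by-gene weights gave 1280 probes past the threshold and 0 lineage factors, limma's default over probes with missing values 1100 and 0, and REML, which stopped with a convergence warning, 3494 and 1, the Runx1 probe A_55_P2183438 (log2 difference 0.46, adjusted p 0.0374). The cause of each change here was not tested, except that filters change the number of probes tested.

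Against 20 probes past the threshold, 11 passed under a median shift, quantile normalization and normexp, 456 in the deposited table without normalization, 9 with no filter on dim probes, 4 with the filter requiring all arrays, 138 with the column of the slide as a random block, 2 without both replicate 3 arrays and 0 to 24 when 1 array was left out (0 without mPGC-1α replicate 3). Against 768 probes with a 2-fold difference at an unadjusted p under 0.05, there were 1165 without normalization, 1342 when no filter was used, 472 with the all-array filter, 392 without both replicate 3 arrays and 435 to 1454 when 1 array was left out. Of the 2 lineage factor probes at an unadjusted p under 0.05, 1 was left under a median shift, normexp, array weights and without both replicate 3 arrays, 0 without normalization and with no filter, and 0 to 1 when 1 array was left out. The lists had 0 genes past the threshold. Without normalization this was 1 relative, 1 regulator and 9 C/EBP linked genes. With array weights it was 1 relative, 4 regulators and 1 ligand, with the column block 1 regulator, and leaving out 1 array gave 0 to 1 regulators.

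Signs turned for small differences. Under a median shift Cebpb was at -0.103, Cebpd at -0.127, Mef2a at -0.106 and the Runx1 probe A_55_P2907714 at -0.0624, each above the median of all probes (-0.139), so that relative to it none turned. Under quantile normalization Cebpb was at -0.084, Cebpd at -0.0991 and Mef2a at -0.0918. With normexp Cebpa was at 0.0397, Cebpd at -0.0213 and Mef2a at -0.12. Without normalization Cebpb was at -0.227, Cebpd at -0.0321 and Mef2a at -0.00311. With array weights Cebpb was at -0.0943, Cebpd at -0.085, A_55_P2907714 at -0.141 and the Mef2d probe A_51_P504672 at 0.0188, which was at 0.0134 with the column block. Without both replicate 3 arrays Cebpb was at -0.231, Cebpd at -0.00557, Mef2a at -0.00702, A_55_P2907714 at -0.0156 and A_51_P504672 at 0.0916. Averaged over probes, Runx1 was at 0.15 and Mef2a at -0.0386. Leaving out 1 array gave -0.148 to 0.0314 for Cebpa, -0.133 to 0.256 for Cebpb, -0.0982 to 0.0635 for Cebpd, -0.117 to 0.227 for A_55_P2907714, -0.174 to 0.506 for the Mef2c probe A_65_P01126 and -0.0952 to 0.112 for A_51_P504672.

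With the replicate number as a block, limma placed 0 probes past the threshold and 1 lineage factor probe at an unadjusted p under 0.05. Deviations of same-numbered arrays correlated at 0.139, 0.127 and 0.0187, and the main fit did not treat the samples as paired. Replicate 1 of both groups lay in slide column 1 and replicate 2 of both in column 2. With the column as a random block, limma estimated a correlation of 0.349 within columns. These values do not settle whether the samples were paired. Matching probes by a gene name in the scanner files was not run, as the files used here have no such column. Signal over background limits the dim Mef2d probes.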
